A study of Mus musculus with 5 samples.

Results

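The genes described here are 32 mouse genes of cholesterol synthesis, uptake, storage and efflux, read in macrophages taken from tumors. They were chosen by name from the pathway, and each was looked up in the authors' deposited table of gene differences, which holds 24982 rows, 12311 of them tested. All 32 were found in 32 rows and all were tested. The macrophages came from tumors of the 9609 line, an MCA fibrosarcoma, in a MEK1-low group of 2 libraries and a MEK1-hi group of 3. The labels give MEK1-low or MEK1-hi as the line's genotype and also as the exosomes of the treatment, with GFP added for the MEK1-low exosomes, and the table names its groups GFP_exo and MEK1_exo. Exosomes are small vesicles shed by cells, and MEK1 is the kinase upstream of ERK. Both groups thus share the 9609 background and an exosome treatment. Neither the labels nor the table state the mouse strain, the age, how the macrophages were isolated, or whether a library is 1 animal or a pool. If libraries of a group are not separate animals, the p and q values cover only technical spread.

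Animal cells keep their cholesterol in balance with opposing programs. When sterol in the endoplasmic reticulum is low, the transcription factor SREBP2 (gene Srebf2) is released from its retention protein Insig and switches on the enzymes that build cholesterol from acetyl-CoA. When oxysterols accumulate, the nuclear receptors LXR alpha (Nr1h3) and LXR beta (Nr1h2) switch on transporters and apolipoproteins that carry cholesterol out of the cell. Macrophages load themselves with cholesterol when they engulf dying cells and lipoproteins, so efflux has long been studied in them. The comparison asked how these programs differed in tumor macrophages between the groups, and every direction is MEK1-hi relative to MEK1-low.

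None of the 32 genes was called different between the groups by the authors' test. In the authors' deposited table, Cuffdiff called 0 of 32 at a q (the p adjusted over all tested rows) of 0.05, against 1.32% of all tested rows (0.999% for higher calls, 0.325% for lower ones). At an unadjusted p under 0.05 the count was 1 of 32, the exporter gene Abcg1, against 6.08% of tested rows. The 21 genes of the synthesis arm (18 enzymes, Srebf2, Insig1 and Stard4) lay on both sides of 0, from -0.37 to 0.32 on the log2 scale. Their median log2 fold change was -0.03, or -0.13 with both groups scaled to the same FPKM sum. The 6 genes of the LXR efflux arm were spread more widely, from -0.44 for Abca1 to 0.70 for Abcg1, with a median of 0.22, or 0.12 after that scaling. Over all tested rows above 0 in both groups the median was -0.02 before that scaling. The scaling lowers the log2 fold change of every row by 0.10, so the scaled medians are not to be set against -0.02. The values are FPKM, a level corrected for transcript length and sequencing depth, and the table gives 1 pooled FPKM per group. No value per library, SD or interval can be given, and a missed threshold does not show that a gene was equal in both groups.

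The shared promoter letters of the synthesis genes are shown first, since SREBP2 is known to work together with NF-Y, a factor that binds the CCAAT box. RefSeq promoter windows (build GRCm38.p6, 250 bases before to 50 after a gene's start) matched 25 of the 32 genes. The motifs searched, on both strands, were CCAAT, the sterol regulatory element core TCACNCCAC and the LXR direct repeat known as DR4 in its exact consensus form. No match of one overlapped a match of another. Of the 17 synthesis arm genes with a window, 15 (88.2%) held CCAAT in their first listed window, against 37.4% of all 32851 windows and 39.1% of the 9935 windows of tested genes. Outside the synthesis arm it was 3 of 8, which were Soat1, Npc2 and Mylip. The core TCACNCCAC was found in 1 gene only, Hmgcs1, against 1.24% of all windows. The exact LXR repeat was in 0 of the 25. It was in 5 of all 32851 windows (0.0152%) and in 0 of the 9935 windows of tested genes. A form this rare cannot show whether these promoters hold an LXR site, and variant forms were not searched. A match describes these letters only, and no binding was measured.

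Capitals mark CCAAT or its reverse complement, and in Hmgcs1 also the sterol core. All stretches end at the base before the RefSeq start and overlap no GENCODE M21 exon. The first 5 belong to enzymes and Abca1 to the efflux arm, where 1 of 5 genes with a window, Mylip, held CCAAT. The stretches were picked as examples and run from 60 to 250 bases, so their box counts do not compare the arms.
Hmgcs1 (chr13:119690101-119690350, plus strand): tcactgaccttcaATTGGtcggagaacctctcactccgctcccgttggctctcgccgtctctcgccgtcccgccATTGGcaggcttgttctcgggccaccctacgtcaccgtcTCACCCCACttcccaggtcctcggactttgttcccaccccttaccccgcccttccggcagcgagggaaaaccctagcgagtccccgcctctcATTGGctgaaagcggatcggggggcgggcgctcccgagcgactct
Mvk (chr5:114444069-114444268, plus strand): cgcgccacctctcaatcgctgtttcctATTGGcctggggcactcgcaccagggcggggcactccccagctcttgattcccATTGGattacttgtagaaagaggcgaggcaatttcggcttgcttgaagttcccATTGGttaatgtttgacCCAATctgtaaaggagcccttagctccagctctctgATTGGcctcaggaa
Mvd (chr8:122443423-122443522, minus strand): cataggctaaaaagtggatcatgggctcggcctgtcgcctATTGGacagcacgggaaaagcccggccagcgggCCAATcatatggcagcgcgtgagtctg
Ebp (chrX:8193513-8193712, minus strand): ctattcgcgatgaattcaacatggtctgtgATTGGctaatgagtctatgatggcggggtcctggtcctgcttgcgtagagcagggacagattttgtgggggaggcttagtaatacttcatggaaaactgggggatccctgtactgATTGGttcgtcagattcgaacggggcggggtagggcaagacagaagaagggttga
Sc5d (chr9:42264301-42264360, minus strand): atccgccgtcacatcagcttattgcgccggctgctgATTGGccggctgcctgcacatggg
Abca1 (chr4:53159896-53159995, minus strand): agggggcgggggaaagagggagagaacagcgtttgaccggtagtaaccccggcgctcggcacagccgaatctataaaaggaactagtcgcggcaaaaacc
The printed stretches hold 5 boxes in Mvk, 3 in Hmgcs1, 2 each in Mvd and Ebp, 1 in Sc5d and 0 in Abca1.

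The early mevalonate enzymes turn acetyl-CoA into farnesyl diphosphate, the precursor of sterols and other isoprenoids. Hmgcs1, which makes HMG-CoA (mm10 chromosome 13, 119690351 to 119708260), stood at 37.0 FPKM for MEK1-low and 35.6 for MEK1-hi in the authors' deposited table. Acat2, the thiolase ahead of it, had 7.88 and 7.38 FPKM, and the mevalonate kinase gene Mvk had 8.77 and 8.32. Their percent changes ran from -6.27 to -3.74, small differences in 1 direction that the authors' test did not call. The authors' deposited table gave the next kinase, Pmvk, 49.9 and 59.7 FPKM. The decarboxylase gene Mvd had 16.6 and 15.8 FPKM and the isomerase gene Idi1 had 2.45 and 2.30. Fdps, which joins the isoprene units, had 8.32 and 9.56 FPKM. Of these 7 genes, 2 (Pmvk and Fdps) lay above 0 on the log2 scale and 5 below, and their median log2 fold change was -0.07. Pmvk was the most abundant of the 7 and Idi1 the least abundant of all 32, in both groups.

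The later enzymes commit farnesyl diphosphate to sterols and finish the ring system. In the authors' deposited table Fdft1, which makes squalene, had 8.92 and 9.24 FPKM, and the squalene epoxidase gene Sqle had 14.7 and 13.4. Lss, which closes the rings to lanosterol (chromosome 10, 76531605 to 76562226), had 3.54 and 2.74 FPKM. Its log2 fold change of -0.37 was the lowest of the synthesis arm, and 21.5% of all tested rows had a larger difference in either direction. The lanosterol demethylase gene Cyp51 had 24.2 and 24.0 FPKM, and the sterol reductase gene Tm7sf2 had 18.7 and 23.3, the arm's highest log2 fold change at 0.32. Tm7sf2 shares its row of the authors' deposited table with the neighboring gene Vps51, so its values are those of both genes together.

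Sterols lose their methyl groups at the carbon-4 position through Msmo1, Nsdhl and Hsd17b7. In the authors' deposited table Msmo1 had 37.2 and 37.8 FPKM, Nsdhl 9.68 and 9.45, and Hsd17b7 5.33 and 4.46. Msmo1 was the most abundant of the 11 later enzymes, and its value and that of Nsdhl moved by less than 3% between groups (1.62% and -2.35%). The sterol isomerase gene Ebp had 27.0 and 32.9 FPKM, the desaturase gene Sc5d 13.8 and 14.3, and the reductase gene Dhcr7 11.5 and 11.1. Of these 11 genes, 5 lay above 0 and 6 below, with a median log2 fold change of -0.01.

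**Figure D1:**
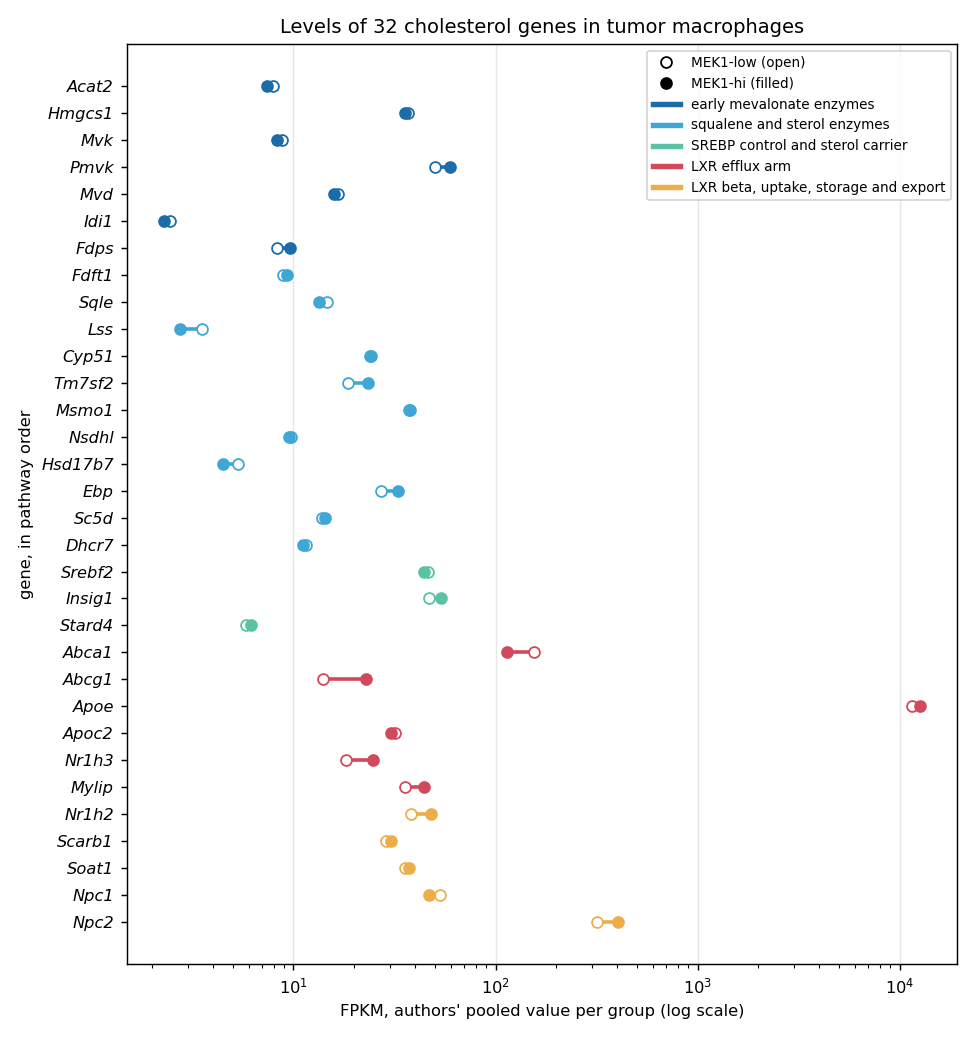
FPKM of the 32 genes on a log axis, 1 gene per row in pathway order, with the authors' pooled value in MEK1-low (open) joined to that in MEK1-hi (filled); the groups have no error bars because the table holds no values per library. Most pairs touch, Abcg1 (14.1 and 22.8 FPKM) shows the widest gap, and Apoe stands apart at 11456.5 and 12566.1 FPKM.

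SREBP2 itself, its retention protein and a sterol carrier that it induces showed no called difference either. The authors' deposited table gave Srebf2 46.4 FPKM for MEK1-low and 44.4 for MEK1-hi. Insig1, which holds SREBP2 in the endoplasmic reticulum and is itself one of its targets (chromosome 5, 28071412 to 28078662), had 46.7 and 53.6 FPKM. Stard4, a soluble carrier of cholesterol between membranes, had 5.80 and 6.15 FPKM. Over all 21 genes of the synthesis arm, 9 lay above 0 and 12 below, where 46.2% of tested rows lay above 0. With both groups scaled to the same FPKM sum, 5 of the 21 lay above 0, against 31.0% of tested rows. The levels of the 21 genes summed to 404 FPKM for MEK1-low and 426 for MEK1-hi, a ratio of 1.05. The FPKM sum over all rows of the table was itself larger in MEK1-hi, by 0.10 on the log2 scale. All 21 differed by less than 1.5-fold, whereas 9.88% of tested rows differed by at least that much in either direction. On the deposited scale the arm's median absolute log2 fold change was 0.08, against 0.17 over all tested rows. These values are for that scale only, since equal FPKM sums shift every log2 fold change by 0.10, more than 0.08.

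The efflux arm begins with the receptor. Nr1h3, which encodes LXR alpha, stood at 18.3 FPKM for MEK1-low and 24.9 for MEK1-hi in the authors' deposited table, a log2 fold change of 0.44 (p = 0.0975). Nr1h2, which encodes LXR beta, had 38.3 and 48.0 FPKM and a log2 fold change of 0.32. LXR beta transcript was thus the more abundant in both groups, at 2.09 times the FPKM of LXR alpha in MEK1-low and 1.93 times in MEK1-hi.

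The transporters that LXR induces lay on opposite sides of 0. Abca1, which hands cholesterol and phospholipid to lipid-poor apolipoproteins (chromosome 4, 53030789 to 53159895), stood at 154 FPKM for MEK1-low and 114 for MEK1-hi in the authors' deposited table. Its log2 fold change was -0.44, the lowest of the 32, with p = 0.173 and q = 0.9998 in the authors' deposited table. Abcg1, which passes cholesterol on to mature high-density lipoprotein (chromosome 17, 31057694 to 31117981), had 14.1 and 22.8 FPKM there, a 1.62-fold higher value in MEK1-hi. The authors' deposited table lists it with a statistic of 1.90, p = 0.00445 and q = 0.196, and 278 tested rows had a smaller p. A normal distribution would give that statistic a two-sided p of 0.0578, so its place under 0.05 rests on Cuffdiff's own p. Of all tested rows, 7.21% had a larger difference in either direction. Abca1 was therefore 11.0 times as abundant as Abcg1 in MEK1-low and 5.01 times in MEK1-hi, on the FPKM scale, and whether the genes' differences differ from each other was not tested.

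Apoe, the apolipoprotein that accepts exported cholesterol (chromosome 7, 19696244 to 19699188), had the highest FPKM listed in both groups. The authors' deposited table gave it 11456.5 FPKM for MEK1-low and 12566.1 for MEK1-hi, which is 2.51% and 2.57% of the summed FPKM. Its log2 fold change of 0.13 was not called. Apoc2, the cofactor of lipoprotein lipase, lies in the same gene cluster and shares its row with Apoc4 and Gm44805. That row had 31.8 and 30.5 FPKM, so Apoc2 alone was not measured. Mylip, a ubiquitin ligase that degrades lipoprotein receptors when LXR is active, had 35.8 and 44.5 FPKM, a log2 fold change of 0.31. In the whole efflux arm, 4 of 6 genes lay above 0 and 2 below, under either scaling.

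**Figure D2:**
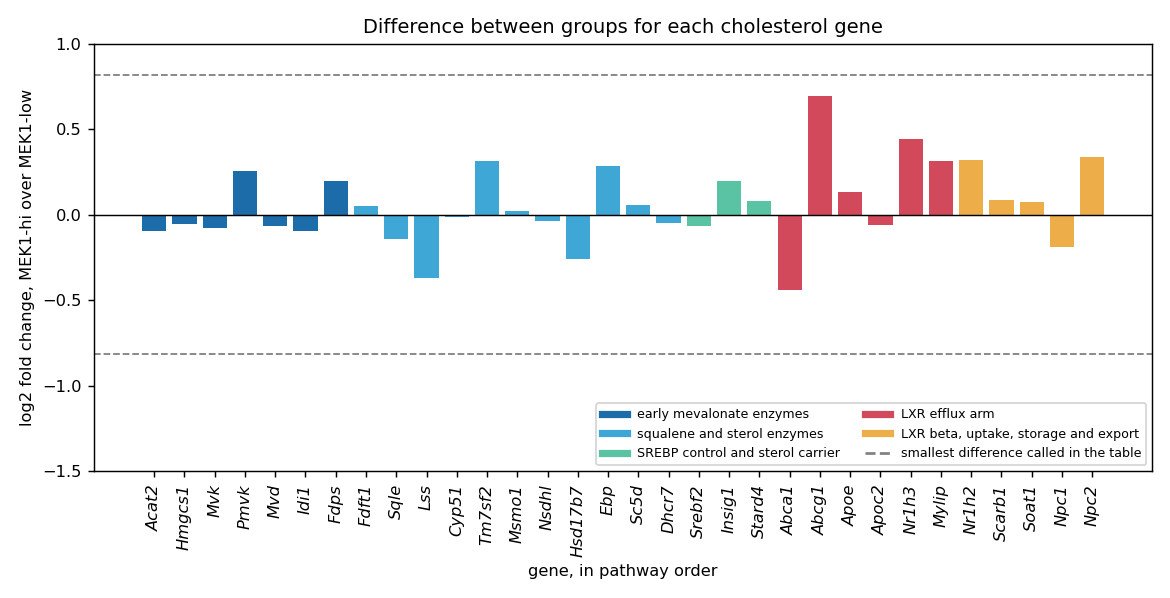
Log2 fold change of MEK1-hi over MEK1-low for each of the 32 genes in pathway order, computed from the authors' pooled FPKM, with dashed lines 0.82 above and below 0, the size of the smallest difference that Cuffdiff called in the whole table. No bar reaches a dashed line, and the widest bars are those of Abcg1 (0.70), Nr1h3 (0.44) and Abca1 (-0.44).

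The arms were compared through their medians, as a description. The LXR arm's median lay 0.26 above that of the synthesis arm on the log2 scale. It rests on 6 genes, and leaving out 1 of them moved it between 0.13 and 0.31. Of all 32 genes, 17 lay above 0, where 46.2% of tested rows did. With both groups scaled to the same FPKM sum, 11 of 32 did, against 31.0% of tested rows. On the deposited scale, 1 of 32 (Abcg1) differed by 1.5-fold or more. The smallest difference that Cuffdiff called anywhere in the authors' deposited table was 0.82 on the log2 scale, larger than any difference among these genes. Of the 625 tested rows with a difference at least that large, 25.9% were called. The order of the 32 genes by FPKM was nearly the same in both groups, with a Spearman rho of 0.988 across genes, which are not independent replicates. No gene moved by more than 3 places.

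**Figure D3:**
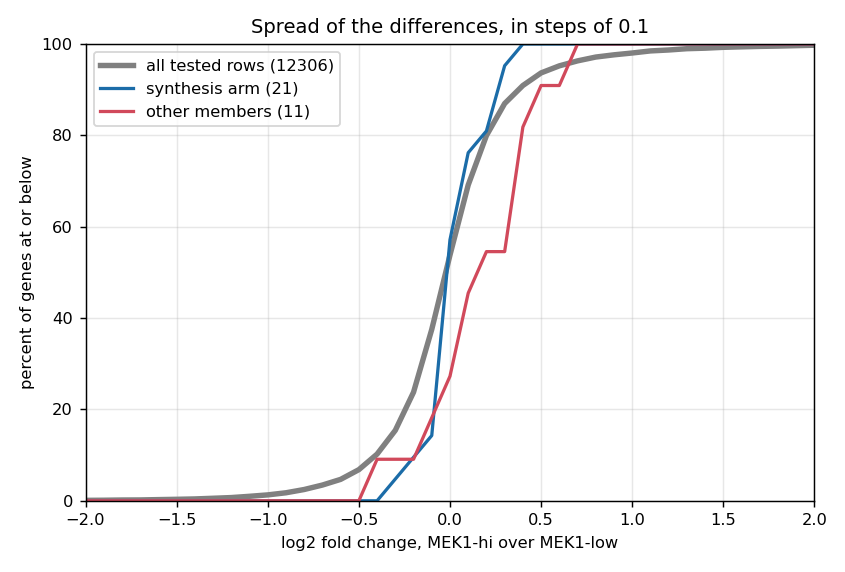
Percent of genes at or below each log2 fold change of MEK1-hi over MEK1-low, in steps of 0.1, for all tested rows above 0 in both groups (grey), the 21 genes of the synthesis arm (blue) and the other 11 genes (red). All genes of the blue line lie between -0.37 and 0.32. The red line lies to the right of the grey one over the middle of the range, with a median of 0.13 against -0.02.

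The remaining genes handle incoming and stored cholesterol. Npc2 and Npc1 move cholesterol out of the lysosome in sequence, the first as a soluble carrier and the second in the membrane. In the authors' deposited table Npc2 stood at 319 FPKM for MEK1-low and 404 for MEK1-hi, and Npc1 had 53.3 and 46.9. Npc2 was 5.99 times as abundant as Npc1 in MEK1-low and 8.62 times in MEK1-hi. Soat1, which esterifies cholesterol for storage in droplets, had 35.5 and 37.4 FPKM, and the high-density lipoprotein receptor gene Scarb1 had 28.7 and 30.5. Among these 4 genes and Nr1h2, 4 lay above 0 and 1, Npc1, below, where 46.2% of tested rows lay above 0. With both groups scaled to the same FPKM sum 2 lay above 0, against 31.0% of tested rows.

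Related genes outside the 32 were read in 6 further lists, of which Cuffdiff called 0 of 71 tested genes in the authors' deposited table, where 1.32% of all tested rows were called. At an unadjusted p under 0.05 there were 3 of 71, against 6.08% of tested rows. One of the 71 is Apoc4, whose row is the joint row already given for Apoc2, and without it the counts were 0 and 3 of 70. The isoprenoid branch and enzyme helpers (12 genes) had 0 such genes and a median log2 fold change of -0.07, and the electron carriers Por and Cyb5r3, which serve sterol enzymes, had log2 fold changes of -0.15 and -0.26. The SREBP control list (11 genes) had 0 and a median of 0.00. Nfya, a subunit of the CCAAT-binding factor, had a log2 fold change of 0.02. The other LXR partners and targets (18 genes) had a median of -0.09, or -0.10 over the 17 without Apoc4, opposite in sign to the 6-gene efflux arm. Their most abundant members were Pltp, the phospholipid transfer protein gene (-0.09), and Arl4c (-0.08). Smpdl3a, a phosphodiesterase gene induced by LXR, had 35.6 and 52.2 FPKM (p = 0.0234, q = 0.557 in the authors' deposited table).

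Genes of lipoprotein and scavenger uptake were spread more than any other of the 6 lists, with a median absolute log2 fold change of 0.49 over 10 tested genes. Cd36, a scavenger receptor for oxidized lipoprotein and fatty acids, had 10.6 FPKM in MEK1-low and 1.70 times that in MEK1-hi (p = 0.00245, q = 0.134 in the authors' deposited table). Marco, another scavenger receptor, had 0.813 and 2.09 FPKM (p = 0.0099, q = 0.326 in the authors' deposited table). Stab1, a scavenger receptor of resident macrophages, had 268 and 167 FPKM there, and Cxcl16, a chemokine that also acts as a scavenger receptor, had 492 and 693. The list thus held high and low members, 6 above 0 and 4 below, and none was called. The ester and sterol transport list (15 tested genes) had a median of -0.04, and its most abundant genes, the lysosomal membrane genes Lamp1 and Lamp2, had log2 fold changes of -0.11 and 0.04. Of 5 oxysterol genes tested in the authors' deposited table, 4 lay above 0, among them Ch25h (0.45) and Hsd3b7 (0.33), which make and further convert oxysterols. The fifth, the oxysterol receptor gene Gpr183, stood at 26.5 and 15.2 FPKM, a log2 fold change of -0.80, and none of the 5 was called. Gpr183 was named after its value was seen.

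**Figure D4:**
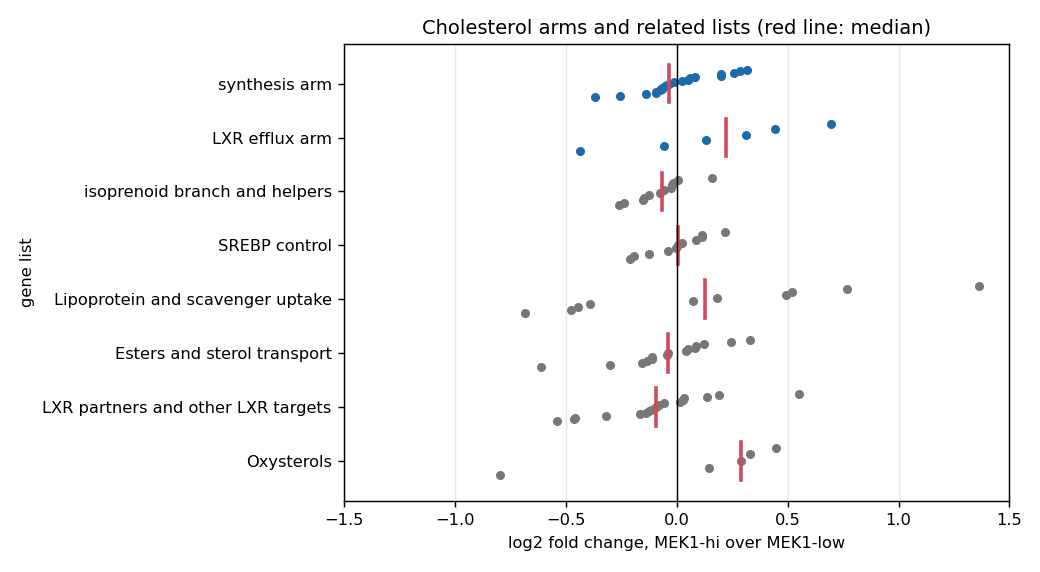
Log2 fold change of MEK1-hi over MEK1-low for each tested gene (points) of the synthesis arm, the LXR efflux arm and 6 related lists, with the median of each list as a red line; vertical position within a row only separates points. The synthesis arm and the SREBP control list cluster near 0, and the uptake list reaches from -0.68 (Stab1) to 1.36 (Marco).

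These are bulk libraries, in which fewer cells of a type and less RNA per cell cannot be told apart. All 8 markers of macrophages were present, with sums of 8301 and 9490 FPKM in MEK1-low and MEK1-hi, and Cuffdiff called 0 of them. Lyz2, the most abundant of the 8, had 4999 and 6372 FPKM and weighs most in these sums. On the log2 scale 3 of the 8 lay above 0 and 5 below, with a median of -0.10. Of 8 markers of fibroblasts, pericytes or tumor cells, 4 were called lower in MEK1-hi and 0 higher, and their sum was 1269 and 754 FPKM. All 8 lay below 0. The collagen genes Col3a1 (454 and 290 FPKM) and Col1a1 (421 and 281) stood above the macrophage markers Itgam, Fcgr1 and Mertk in both groups. They stood below Cd68, Csf1r, Cd14 and Lyz2 in both groups, and above Adgre1 (388 and 411) in MEK1-low only. Of 4 dendritic cell markers, 2 were called higher, with sums of 6.29 and 16.7 FPKM. Sums for T cells were 4.79 and 9.69 FPKM, for neutrophils 54.6 and 62.8, for endothelial cells 8.48 and 9.31, and for epithelial cells 18.2 and 12.3. Tested neutrophil markers lay 2 above 0 and 1 below, endothelial markers 1 above and 2 below, and epithelial markers 1 above and 1 below. The 2 NK and 3 B cell markers summed to less than 1 FPKM each, and no marker was at 0 in either group. Fibroblasts, tumor cells and dendritic cells also express genes of cholesterol synthesis, and their part in the values of the 32 genes was not tested.

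Some of the genes share exon sequence with a neighbor in GENCODE M21. Fdft1 shares 774 of 3698 exon bases with Ctsb on the opposite strand, and Fdps shares 1124 of 1453 with the gene model Gm43738 on its own strand. Transcripts on the opposite strand share 557 of 3482 exon bases with Hmgcs1, 381 of 4667 with Lss and 323 of 3027 with Idi1. Smaller shares on the opposite strand were those of Cyp51 with Akap9 (166 of 3931) and of Npc1 with Rmc1 (192 of 5224) and Gm15956 (90 of 5224). No source used here states the strand setting or the annotation behind the counting, so the values of these genes are uncertain.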

How the data were processed

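RNA-seq libraries of tumor macrophages (3 MEK1-hi, 2 MEK1-low) were stranded poly(A) libraries with 100-base paired reads, per the labels' protocols. FastQC 0.73, TopHat, Cufflinks, Cuffdiff and the mm10 build are named, with no role or order, per the submitters' processing notes. The authors deposited 1 Cuffdiff table with a pooled FPKM per group. The authors' test statistic was taken as a score, as deposited, and so were the p-value and q-value that the authors deposited. The table does not show library depth, which is unknown, so no interval is given.

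Log2 fold changes were computed here from deposited FPKM, without a pseudocount. FPKM is not a count, so no count model was run. Genes were called by the authors' test at a q of 0.05. The members and lists were chosen with earlier results of these data known. Named genes were all 32 members and, in each related list, those with an unadjusted p under 0.05 and the 2 most abundant. Rows were matched by symbol, also within joined symbols. Some genes of the pathway are not reported here. Coordinates are the authors' loci on mm10, 1-based. Computation of fold changes and adjustments was tested on simulated data. The work used Python 3.11.15 with pandas 2.3.3, numpy 2.4.6, matplotlib 3.10.9 and scipy 1.17.1. Alternatives changed the threshold, adjustment, source of p, filter, pseudocount, scaling and list membership.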

Additional observations from a re-analysis of the deposited data

How the results depend on the processing

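The count of 0 called members was also 0 with a q of 0.1 and with a filter of 1 FPKM, and was 1 at an unadjusted p under 0.05. Over all rows these settings gave 198, 173 and 749 calls, against 163. A q of 0.01, p from the statistic and a normal distribution, and the Benjamini-Yekutieli adjustment are stricter (91, 15 and 0 calls over all rows), so a count of 0 could not fall under them and they do not bear on it. The synthesis arm's median (-0.03) was -0.13 with equal FPKM sums, -0.011 with the median of tested rows at 0, -0.0396 for the enzymes alone and -0.0396 without rows of several symbols, an alternative chosen after seeing the data. The LXR arm's median (0.22) was 0.12 and 0.25 under those scalings, 0.31 without rows of several symbols, 0.31 without Abca1, Apoe or Apoc2 and 0.13 without Abcg1, Nr1h3 or Mylip. Pseudocounts of 0.1 and 1 turned the sign of 0 of the 32 log2 fold changes. Equal FPKM sums turned 6, those of Fdft1 (-0.0476), Msmo1 (-0.0756), Sc5d (-0.042), Stard4 (-0.0156), Soat1 (-0.022) and Scarb1 (-0.0092), because that scaling lowers every value by 0.10. Setting the median of tested rows at 0 turned Cyp51 (0.0107). Leaving out each library could not be run, since the table has 1 pooled value per group. No paired analysis was possible because the columns carry no replicates.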
